A study of Mus musculus with 4 samples.

Results

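Liver lacking the growth hormone receptor (GHR) was set directly against liver lacking MDR2. The values were RMA intensities (brightness of a probe set after background correction, normalization between arrays and summary over probes), and each gene's log2 intensity on the MDR2-null array was subtracted from that on the GHR-null array. A gene entered where its row carried exactly 1 gene symbol, a gene with several rows being read from its brightest row on average, and where the brighter of the pair of arrays reached an intensity of 100. Of 19938 genes measured, 10392 met this rule. Each side was 1 array of RNA pooled from 3 livers, so differences between the 2 pools have no replicate check, and the spread between mice of a genotype is not known. The series holds 4 such arrays, of whole liver from mice of 8 weeks: 1 wild-type, 1 MDR2-null (MDR2-/-), 1 GHR-null (GHR-/-) and 1 lacking both (GHR-/-MDR2-/-, the double-null pool), all labelled male. The sources used here give no strain, diet or allele design.

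Growth hormone from the pituitary acts on hepatocytes through GHR, the kinase JAK2 and the transcription factor STAT5B, and drives hepatic production of insulin-like growth factor 1. The pulsed secretion typical of male mice sustains a male pattern of liver genes, and its loss shifts the male liver toward the female pattern. MDR2, encoded by Abcb4, carries phosphatidylcholine into bile, and without it bile salts damage the bile duct epithelium, with duct proliferation, inflammation and scarring around the ducts. The comparison therefore contrasts loss of a hormone signal in hepatocytes with a cholestatic injury.

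Intensities below are given with the wild-type pool first, then the pools that lack MDR2, GHR and both. The targeted genes went with the labels: Ghr stood at 4944, 4485, 1395 and 935, low in the pools labelled GHR-null and double-null. Abcb4 stood at 1120, 663, 1346 and 689, low in the pools labelled MDR2-null and double-null. Signal was left for both, and the sources used here do not say whether the probes lie in the deleted parts. One point stood against the labels: Xist, the RNA of the inactive X chromosome of females, stood at 16, 18, 1400 and 17, high in the GHR-null pool alone. The Y-linked Eif2s3y at 899, 840, 680 and 951, Kdm5d at 268, 212, 259 and 265 and Uty at 361, 345, 308 and 368 were present in every pool. The part of this in the results below was not tested, so many of the results that rest on the GHR-null array are also given without it. That estimate adds the effects of the 2 losses on the log2 scale, taking double-null minus MDR2-null and subtracting MDR2-null minus wild type. It subtracts the MDR2-null array 2 times and has no error of its own. Where the double-null value is close to the MDR2-null value, it comes close to wild type minus MDR2-null. It is then no separate check on the GHR-null pool. Hepatocyte markers differed little between the 2 single-null pools: of 22 measured none was 1.5-fold apart, their median difference was 0.04, and albumin (Alb) stood at 15283, 15242, 13255 and 14956. In the double-null pool some were lower, such as G6pc, the last enzyme of glucose release, at 4661, 4743, 3488 and 1487, and the transcription factor Cebpa at 2116, 1707, 2490 and 1282.

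Over the 10392 genes, the GHR-null pool exceeded the MDR2-null pool by 2-fold or more for 163 (1.57%) and lay 2-fold or more under it for 222 (2.14%). At 4-fold the counts were 36 and 41, and at 8-fold 18 and 15. Log2 intensities of the 2 arrays had a Pearson r of 0.939 across these genes, which are not independent replicates. In 45 of the 163 and 101 of the 222 the dimmer array was under 100, a level not shown to be above background. For such genes a fold is written as "at least", with the dimmer side set to 100, and their log2 differences, those of the deposited values, have no established size. On that scale the genes highest in GHR-null were cytochromes, with Cyp2b9 at least 59.5-fold, Cyp4a14 at least 47.5-fold, Cyp2b13 at least 25.4-fold, Cyp17a1 24.7-fold and Cyp4a31 20.8-fold above the MDR2-null pool. At the other end lay male-pattern genes, among them Cyp4a12a (51.0-fold lower) and Cyp4a12b (at least 49.8-fold), together with genes bright in the MDR2-null pool, among them Cib3 (at least 13.7-fold), Plet1 (10.3-fold) and Lcn2 (8.44-fold). When the GHR-null array was left out, 70 of the 163 and 127 of the 222 kept a difference of 2-fold. These counts still rest on the MDR2-null array, which took part in choosing the genes. The split into higher and lower genes depended on scaling. Higher genes made up 42.3% of the total as deposited, 25.4% (110 higher, 323 lower) when each array was centred on its median gene and 31.6% (127 and 275) after cyclic loess. Median centring moved the median difference of all genes by -0.15, from 0.01, and no 2-fold gene changed direction under either.

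**Figure D1:**
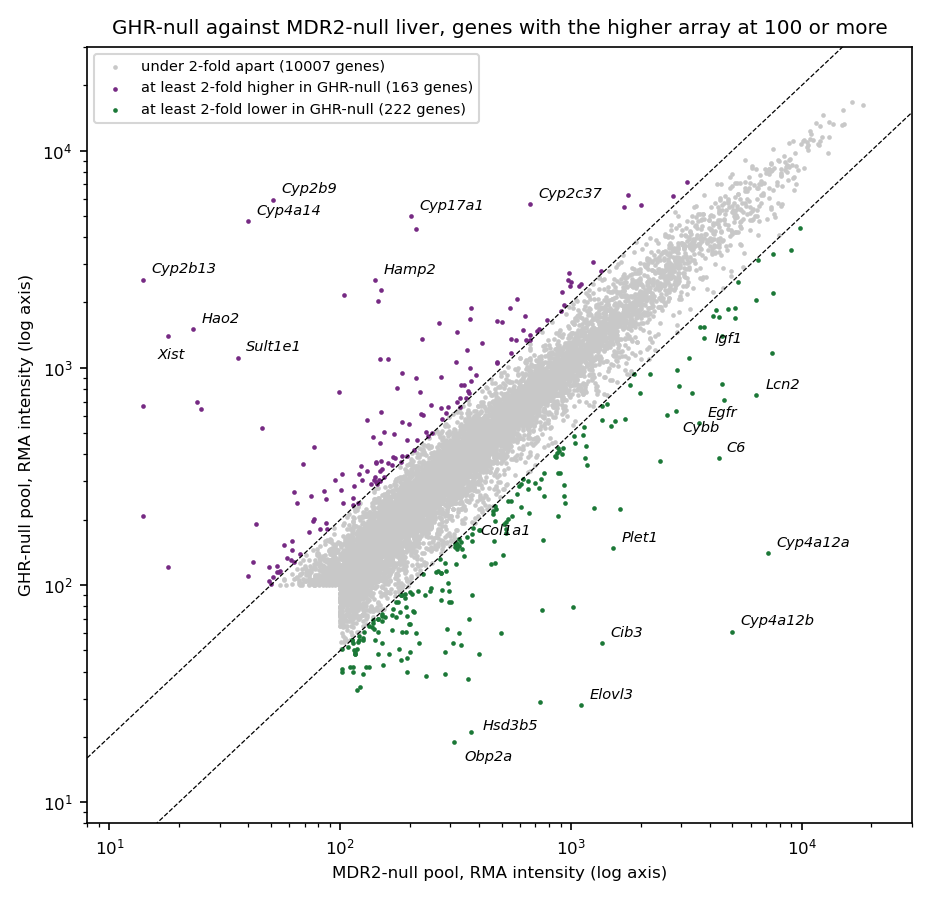
Intensity in the GHR-null pool (y, log axis) against the MDR2-null pool (x, log axis), 1 point per gene among the 10392, with dashed lines at 2-fold. Purple marks the 163 genes at least 2-fold higher in GHR-null and green the 222 at least 2-fold lower, with Cyp2b9 and Cyp4a14 far above the lines and Cyp4a12a and Cyp4a12b far below.

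A limma fit over all 4 arrays, with a GHR effect and an MDR2 effect that add on the log2 scale, gave the contrast an error with 1 residual degree of freedom. At an adjusted p under 0.05, limma called 19 genes higher (0.183%) and 46 lower (0.443%), and 997 and 631 at an unadjusted p under 0.05. In this test the spread is the departure of the double-null array from additivity, not the spread between mice. Cyp2b13, bright in the GHR-null pool and not in the double-null pool, did not pass (limma adjusted p = 0.19), while Cyp4a14, also far from additive, did (adjusted p = 0.0375). Without the level filter limma called 0 genes in either direction (1107 and 1015 at an unadjusted p under 0.05), so the calls rest on that filter. The smallest adjusted p-values among higher genes belonged to Sult1e1 (log2 difference 4.95, SE 0.20, limma adjusted p = 0.00284), Cyp4a31 (4.38, SE 0.20), Hamp2 (4.15, SE 0.22), Abcd2 (3.81, SE 0.24) and Cyp4a10 (3.93, SE 0.27). Among lower genes they belonged to Cyp4a12a (-5.67, SE 0.24, limma adjusted p = 0.00284), Obp2a (-4.03, SE 0.22), D17H6S56E-5 (-3.68, SE 0.21), Lcn2 (-3.08, SE 0.20) and Plet1 (-3.36, SE 0.21). The dimmer array was under 100 for Sult1e1, Obp2a and D17H6S56E-5, which were at least 11.1-fold, 3.11-fold and 10.2-fold apart.

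Promoter windows (250 bases before to 50 after the annotated start, RefSeq, GRCm38.p6) were shown for 4 genes that stand for different patterns. Cish, a feedback inhibitor induced by STAT5, was low in both pools without GHR. Hamp2, a hepcidin gene of iron regulation, differed in opposite directions from wild type in the 2 single-null pools. Plet1, a surface protein of progenitor epithelia, was high in the 2 pools without MDR2, and Cyp2b9, a female-pattern cytochrome, was high in the 2 pools without GHR. Capitals mark TTCNNNGAA, the spacing bound by STAT5, and TGANTCA, the AP-1 site. Both motifs read the same on both strands. The windows are chr9:107296409-107296708 (+) for Cish, chr7:30924132-30924431 (-) for Hamp2, chr9:50494275-50494574 (+) for Plet1 and chr7:26173159-26173458 (+) for Cyp2b9, each written 5′ to 3′ along its gene.
Cish: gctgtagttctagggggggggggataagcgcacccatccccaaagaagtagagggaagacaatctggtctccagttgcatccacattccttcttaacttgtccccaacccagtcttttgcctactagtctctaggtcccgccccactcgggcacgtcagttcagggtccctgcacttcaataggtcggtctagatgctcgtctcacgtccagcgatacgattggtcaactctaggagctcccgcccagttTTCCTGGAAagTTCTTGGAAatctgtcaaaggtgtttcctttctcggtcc
Hamp2: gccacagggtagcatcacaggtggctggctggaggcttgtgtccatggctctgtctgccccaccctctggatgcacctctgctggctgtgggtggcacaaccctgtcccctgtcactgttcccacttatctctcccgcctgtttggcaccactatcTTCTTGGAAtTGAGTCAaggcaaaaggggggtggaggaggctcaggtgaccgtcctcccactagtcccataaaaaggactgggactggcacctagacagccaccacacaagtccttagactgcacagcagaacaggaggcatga
Plet1: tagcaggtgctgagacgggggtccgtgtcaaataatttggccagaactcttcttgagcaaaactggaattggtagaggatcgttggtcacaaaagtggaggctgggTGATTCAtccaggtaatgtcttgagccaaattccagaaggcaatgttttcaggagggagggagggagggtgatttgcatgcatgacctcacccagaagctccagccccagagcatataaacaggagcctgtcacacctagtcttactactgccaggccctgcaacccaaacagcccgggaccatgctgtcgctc
Cyp2b9: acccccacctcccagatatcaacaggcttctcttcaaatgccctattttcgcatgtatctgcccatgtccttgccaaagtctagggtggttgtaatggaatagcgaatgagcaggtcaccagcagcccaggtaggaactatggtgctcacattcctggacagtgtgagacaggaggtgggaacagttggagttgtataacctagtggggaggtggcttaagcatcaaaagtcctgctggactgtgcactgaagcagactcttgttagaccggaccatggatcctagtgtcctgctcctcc
Counting from 1 at the 5′ end, Cish held TTCNNNGAA at 251 and 262. Hamp2 held TTCNNNGAA at 157 and TGANTCA at 167, and Plet1 held TGANTCA at 107. The Cyp2b9 window held neither. Over genes with a window, TTCNNNGAA was found in 10 of 126 higher genes (7.94%), 14 of 159 lower genes (8.81%) and 667 of 8350 genes that met the rule (7.99%). TGANTCA was found in 12 of 126 higher genes (9.52%), 20 of 159 lower genes (12.6%) and 524 of 8350 (6.28%). A match is a description of the letters only.

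Genes of the growth hormone and IGF axis were more often dimmer than brighter in the GHR-null pool. The lower signal of Ghr itself goes with the genotype and is not a result about these genes. Of 19 measured members 18 passed the level, 2 exceeded the MDR2-null level by 1.5-fold or more and 8 lay 1.5-fold or more under it, where 4.09% and 2.91% of all 19938 measured genes did. Their median difference was -0.04, beside 0.01 over all genes, so the list as a whole did not move with its dimmer members. The shares over all genes stand for 815 higher and 581 lower genes, all among the 10392 that met the rule. Set against those 10392 the shares are larger, and this is the closer base, since most members here met the rule. Counts of the lists below have the same base. Small counts, such as those of the endothelial and cell cycle lists, may lie near it and are then no result about the list. Egfr, the receptor for epidermal growth factor and a growth hormone target in liver, stood at 4315, 3596, 558 and 741. It was low in both pools without GHR, with a difference of -2.69 (SE 0.28, limma adjusted p = 0.0249), the only member limma called. Igf1, the circulating growth factor of the axis, stood at 3951, 3766, 1546 and 374. Igfals, which keeps IGF1 in the circulation, stood at 1188, 856, 395 and 77. Both were lower in the GHR-null than in the MDR2-null pool, by -1.28 and -1.12, and lower again in the double-null pool, and neither passed (limma adjusted p = 0.36 and 0.40). Estimated without the MDR2-null array, Igf1 came to 0.69 and Igfals to 0.77, the opposite sign. That estimate subtracts double-null minus GHR-null from GHR-null minus wild type. It turned as the fall from GHR-null to double-null exceeded that from wild type to GHR-null. As measured, both genes were lower in the GHR-null pool than in the wild-type and MDR2-null pools.

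The feedback inhibitors of the receptor were also dimmer. Cish stood at 352, 320, 154 and 95, a difference of -1.06, and Socs2 at 782, 535, 243 and 605, a difference of -1.14. Socs2 was low in the GHR-null pool but near the MDR2-null level in the double-null pool, so its estimate without the GHR-null array was 0.73. Onecut1, a hepatocyte transcription factor raised by growth hormone, stood at 1150, 436, 248 and 218. It was below wild type in all 3 mutant pools, and its difference of -0.81 turned to 0.40 without the GHR-null array. The 2 members at least 1.5-fold higher were binding proteins. Igfbp1 stood at 308, 353, 1208 and 3284 (1.77) and Igfbp2 at 691, 549, 1360 and 2628 (1.31). Both were high in the 2 pools without GHR and highest in the double-null pool. Limma called neither (adjusted p = 0.17 and 0.25). Among neighbours of Ghr on its chromosome, 18 were measured, 12 passed the level, 1 was at least 1.5-fold higher and 2 lower. The lowest of them was C6, a complement gene that is also male-biased.

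The female-biased list held the largest shift. Of 32 measured members 28 passed the level, 24 were at least 1.5-fold higher and 2 lower, and the median difference was 1.91. Limma called 6 higher. Cyp2b13 stood at 15, 14, 2545 and 28, so it was bright in the GHR-null pool alone, at least 25.4-fold above the MDR2-null pool. Hao2, a hydroxyacid oxidase, stood at 19, 23, 1507 and 48, and the organic anion transporter Slc22a26 at 30, 24, 700 and 21, again bright in that pool alone. Cyp3a16 (14, 14, 209 and 13) and the sulfotransferase Sult2a3 (14, 14, 667 and 14) followed the same course, which is also that of Xist. Cyp17a1, a steroid hydroxylase, stood at 257, 202, 4980 and 438, a 24.7-fold difference from the MDR2-null pool with the double-null pool far nearer the latter. Its log2 difference of 4.62 came to 1.46 without the GHR-null array.

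Other female-biased genes were bright in both pools without GHR. The estrogen sulfotransferase Sult1e1 stood at 20, 36, 1114 and 1845, brighter still in the double-null pool. Abcd2, a peroxisomal fatty acid transporter, stood at 280, 146, 2041 and 1473. Cyp39a1, an oxysterol hydroxylase, stood at 266, 226, 1359 and 1549 (2.59, SE 0.23, limma adjusted p = 0.0186). Cyp2b9 stood at 71, 51, 5952 and 1162 (6.87, SE 0.58, limma adjusted p = 0.0155), at least 59.5-fold above the MDR2-null pool. Without the GHR-null array, Sult1e1 came to 4.83, Abcd2 to 4.27, Cyp39a1 to 3.01 and Cyp2b9 to 4.99. By contrast Cyp2b13 came to 1.1, Hao2 to 0.79, Slc22a26 to 0.13, Sult2a3 to 0.00 and Cyp3a16 to -0.11. Over the list the median came to 0.14 in place of 1.91. On this estimate the list as a whole shifted little, while Sult1e1, Abcd2, Cyp39a1 and Cyp2b9 stayed high. The genes were grouped here by their double-null values, which enter the estimate. Xist was bright on the GHR-null array, and its part was not tested. The estimate assumes additive effects, so a departure of that array and a non-additive effect of the 2 losses cannot be told apart.

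Male-biased genes went the other way. Of 31 measured members 29 passed the level, 2 were at least 1.5-fold higher and 21 lower, and the median difference was -1.46. Limma called 9 lower and 0 higher. The fatty acid hydroxylase Cyp4a12a stood at 7891, 7139, 140 and 181, 51.0-fold lower in the GHR-null than in the MDR2-null pool and low in both pools without GHR. Its near-identical neighbour Cyp4a12b stood at 4464, 4977, 61 and 260, and since probes may read both, their separate values are uncertain. The fatty acid elongase Elovl3 stood at 2806, 1103, 28 and 24, at least 11.0-fold lower in the GHR-null than in the MDR2-null pool (limma adjusted p = 0.00828). C6 stood at 2597, 4355, 385 and 860, a log2 difference of -3.50, and the major urinary protein Mup21 at 922, 400, 48 and 35, at least 4-fold lower. Hsd3b5, a steroid reductase, stood at 3877, 367, 21 and 20. It was already 10.6-fold below wild type in the MDR2-null pool, so this comparison gives only at least 3.67-fold. Without the GHR-null array the list's median was -1.22, and the double-null pool, in which Xist was at 17, held each of these named genes below both pools with GHR.

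**Figure D2:**
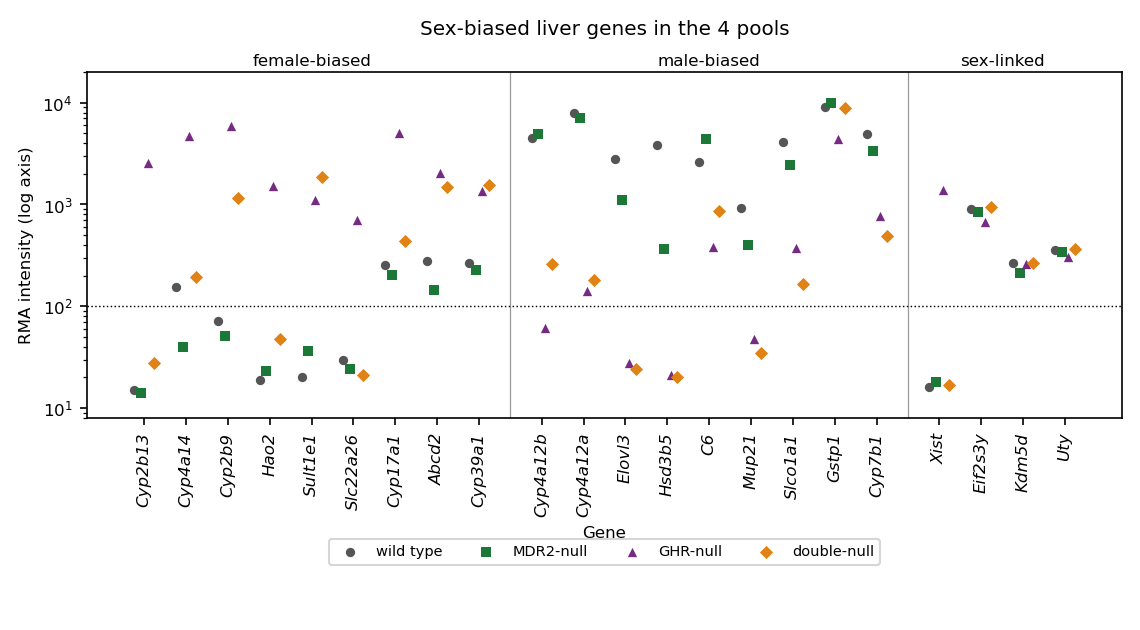
RMA intensity (y, log axis) of female-biased, male-biased and sex-linked genes (x) in the 4 pools, 1 point per pool, with the level of 100 dotted. The male-biased genes other than Gstp1 are low in the GHR-null and double-null pools, while Cyp2b13, Hao2, Slc22a26 and Xist are bright in the GHR-null pool alone.

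Genes of fatty acid oxidation under the nuclear receptor PPAR alpha were brighter in the GHR-null pool. Of 23 measured, 21 passed the level, 8 were at least 1.5-fold higher and 0 lower, with a median of 0.48. Limma called 3 higher and 0 lower of the list. All 3 were omega-hydroxylases of the Cyp4a cluster, and the 2 pools differed from wild type in opposite directions. Cyp4a14 stood at 153, 40, 4748 and 196, Cyp4a10 at 557, 150, 2292 and 389, and Cyp4a31 at 416, 104, 2165 and 466. Each was lowest in the MDR2-null pool and highest in the GHR-null pool, and the double-null pool lay near wild type. The log2 differences were 6.89 (Cyp4a14, with its dimmer array under 100), 3.93 and 4.38 as measured and 4.23, 3.27 and 4.16 without the GHR-null array. The latter values subtract the low MDR2-null value 2 times. The same gene cluster thus held the male-biased Cyp4a12a and Cyp4a12b at the low end and these members at the high end. They are close paralogs, so the separate values are uncertain. The median of the whole list came to 0.19 without the GHR-null array.

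Fatty acid synthesis genes were also more often brighter in GHR-null. All 20 members passed the level, 7 were at least 1.5-fold higher and 0 lower, with a median of 0.48. The desaturase Scd2, at 138, 221, 777 and 1076, was high in both pools without GHR (1.81, SE 0.20, limma adjusted p = 0.0322), and it was the only member limma called. Acacb, the mitochondrial acetyl-CoA carboxylase, stood at 635, 285, 547 and 120 (0.94), and fatty acid synthase (Fasn) at 4193, 2720, 4563 and 1490 (0.75). Both were near wild type in the GHR-null pool and lower in the MDR2-null and double-null pools, and both turned without the GHR-null array, to -0.09 and -0.24. The main desaturase Scd1 stood at 10532, 9373, 9709 and 8438 and barely differed (0.05). Without the GHR-null array the list's median was -0.06. Of 20 genes of lipid uptake and droplets, 6 were at least 1.5-fold higher and 1 lower, and limma called none. The fatty acid receptor Cd36 stood at 379, 910, 2232 and 1394, above wild type in all 3 mutant pools, and its difference of 1.29 turned to -0.65 without the GHR-null array. Vldlr, a lipoprotein receptor, stood at 99, 99, 775 and 215, at least 7.75-fold higher in GHR-null, with the double-null pool nearer the MDR2-null level. Cholesterol synthesis differed little, with 1 of 16 members at least 1.5-fold higher, 0 lower and a median of 0.17, which was -0.37 without the GHR-null array and 0.63 without the MDR2-null array.

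Targets of the xenobiotic receptors CAR and PXR were brighter in the GHR-null pool for 7 of 19 measured members and lower for 2, with a median of 0.41. Cyp2c37 stood at 1135, 664, 5674 and 4293, high in both pools without GHR (3.10, SE 0.22, limma adjusted p = 0.00828). Cyp2b10, the usual reporter of CAR activity, stood at 472, 364, 1677 and 136, so it was bright in the GHR-null pool alone and its difference of 2.20 turned to -1.05 without that array. Nr1i3, which encodes CAR, stood at 1329, 991, 2371 and 1493 (1.26, limma adjusted p = 0.091).

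Bile acid synthesis showed no common direction. Of 16 measured enzymes 3 were at least 1.5-fold higher and 2 lower, and the median of 0.08 became -0.07 with median centring and -0.13 without the GHR-null array. Cyp7a1, the rate-limiting enzyme of the classical route, stood at 2703, 3732, 2621 and 2735 (-0.51), and Cyp8b1, which sets cholic acid output, at 1666, 1229, 1036 and 316 (-0.25). Neither reached 1.5-fold, and Cyp8b1 turned to 1.03 without the MDR2-null array. The alternative-route enzyme Cyp7b1, also male-biased, stood at 4966, 3326, 763 and 489 (-2.12, SE 0.19, limma adjusted p = 0.0192). Scp2, which takes part in side-chain shortening, stood at 5793, 5112, 1884 and 1960 (-1.44, limma adjusted p = 0.06). Transporters of bile acids and bile lipids were more often brighter, with 8 of 19 at least 1.5-fold higher, 3 lower and a median of 0.48 (0.20 without the GHR-null array), Abcb4 itself being 1 of the 8. The uptake carrier Slco1a4 stood at 681, 966, 2526 and 2975 (1.39) and the basolateral exporter Abcc4 at 96, 115, 285 and 265 (1.31), both highest in the pools without GHR. The male-biased uptake carrier Slco1a1 stood at 4072, 2419, 372 and 165 (-2.70, SE 0.23, limma adjusted p = 0.0155). The canalicular bile salt pump Abcb11 stood at 2914, 2557, 4140 and 2723 (0.70) and the main uptake carrier Slc10a1 at 8532, 6069, 8455 and 3144 (0.48). They came to 0.28 and -0.46 without the GHR-null array. Slc51b, an exporter induced by bile acids, was above wild type in every mutant pool at 88, 226, 193 and 238. Klb, the coreceptor through which intestinal FGF15 represses Cyp7a1, stood at 610, 316, 1059 and 329, low in both pools without MDR2 and 3.35-fold higher in GHR-null.

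**Figure D3:**
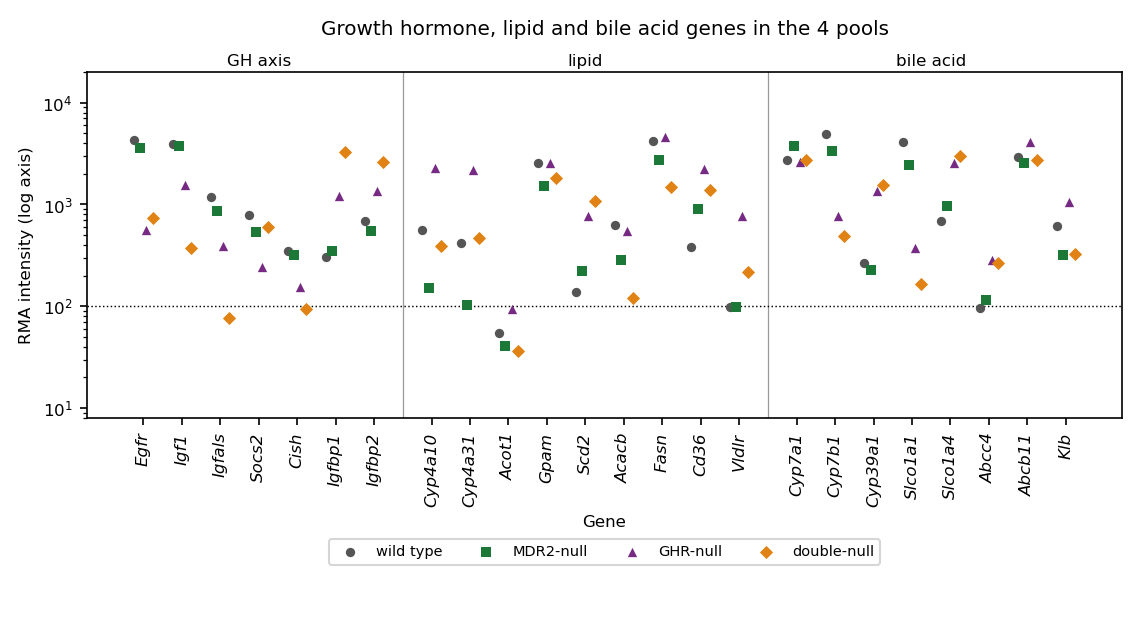
RMA intensity (y, log axis) of growth hormone axis, lipid and bile acid genes (x) in the 4 pools, 1 point per pool, with the level of 100 dotted. Egfr, Cyp7b1 and Slco1a1 are low and Igfbp1, Igfbp2, Scd2 and Slco1a4 high in both pools without GHR, and Cyp4a10 and Cyp4a31 are lowest in the MDR2-null pool.

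Bile duct genes were brighter in the MDR2-null pool, which for this comparison gives negative values. Of 20 cholangiocyte markers measured 16 passed the level, 1 was at least 1.5-fold higher (Prom1, also on the female-biased list) and 12 lower in GHR-null, with a median of -0.89. Limma called none. In whole liver, fewer cells of a type and less RNA per cell cannot be told apart. E-cadherin (Cdh1), of epithelial junctions, stood at 586, 1150, 385 and 1256 (-1.58), and the serine protease St14 at 66, 195, 72 and 257, at least 1.95-fold lower. Epcam, the surface marker of duct and progenitor cells, stood at 48, 113, 40 and 329, and the duct transcription factor Sox9 at 202, 250, 127 and 495. The keratins Krt7 (77, 122, 71 and 266) and Krt19 (71, 122, 79 and 214) were likewise highest in the double-null pool. Krt8 (3754, 7466, 3350 and 7453) and Krt18 (2191, 4116, 1732 and 4006), named after their values were seen, were bright in both pools without MDR2 to a similar level. They are also expressed by hepatocytes. Krt23 departed from these, at 38, 171, 222 and 340, above wild type in every mutant pool. Summed over the 20 markers the intensity was 8883, 15992, 8287 and 17556, and most of each sum came from Krt8 and Krt18. Without the GHR-null array the list's median was -0.14, and Epcam turned to 0.31, Sox9 to 0.68, Krt7 to 0.46 and Krt19 to 0.03, as the double-null pool lay well above the MDR2-null pool for these genes. Krt23 turned from 0.38 to -1.18.

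Several of the strongest genes of the MDR2-null side lay outside the lists. The calcium-binding protein gene Cib3 stood at 140, 1366, 54 and 1305, Plet1 at 136, 1521, 148 and 1356, and D17H6S56E-5 at 45, 1016, 79 and 1480. All 3 were near wild type or below in the GHR-null pool and close to the MDR2-null level in the double-null pool, and limma called all 3 lower (adjusted p = 0.0192, 0.00584 and 0.00455). Dmbt1, a mucosal scavenger protein, stood at 34, 357, 37 and 1419, at least 3.57-fold lower in GHR-null, and Sprr1a, a stress-induced cornified envelope protein, at 70, 498, 60 and 211, at least 4.98-fold lower. Anxa5 (791, 4487, 843 and 4252), a phosphatidylserine-binding annexin, and Mfge8 (155, 1251, 227 and 1404), a bridge for uptake of apoptotic cells, were named after their values were seen. Both followed the same course, with differences of -2.41 and -2.46, and both passed limma (adjusted p = 0.0155 and 0.0192). Slc10a2, the apical bile acid carrier of ducts, stood at 469, 748, 77 and 406, at least 7.48-fold below the MDR2-null pool and far below wild type in the GHR-null pool.

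Macrophage genes were also dimmer in GHR-null. Of 25 Kupffer cell and macrophage markers 18 passed the level, 1 was at least 1.5-fold higher and 8 lower, with a median of -0.60, and 13 or 12 were lower with median centring or loess. Lysozyme (Lyz2) stood at 847, 2879, 977 and 5243 (-1.56) and the lipopolysaccharide coreceptor Cd14 at 83, 296, 84 and 545 (at least 2.96-fold lower). Ccr2, the chemokine receptor of recruited monocytes, stood at 29, 118, 33 and 186 and was the only member limma called (adjusted p = 0.0461), with a bound of at least 1.18-fold. The Kupffer cell lectin Clec4f, named after its values were seen, stood at 677, 885, 993 and 628 (0.17). Summed intensities of the list were 5942, 12165, 8189 and 16745. Cybb, the phagocyte oxidase subunit, stood at 445, 2849, 633 and 2906 (-2.17, SE 0.24, limma adjusted p = 0.0315). Without the GHR-null array the median of the list was -0.51.

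MHC class II genes and chemokines followed. Of 7 class II genes measured 5 passed the level, and these 5 were at least 1.5-fold lower, with a median of -1.01 over the 7. The invariant chain Cd74 stood at 438, 1986, 764 and 2153, H2-Ab1 at 535, 1424, 682 and 1673 and H2-Eb1 at 426, 1355, 668 and 1266. The GHR-null values lay between wild type and the pools without MDR2, and limma called none of them (adjusted p = 0.13, 0.11 and 0.22). Of 28 chemokines, cytokines and adhesion molecules 17 passed, 2 were at least 1.5-fold higher and 9 lower, and 5 were lower with an offset of 50 added to each intensity. Ccl2, which draws monocytes, stood at 63, 290, 63 and 1192, Cxcl16 at 113, 336, 146 and 660 and the adhesion molecule Vcam1 at 147, 399, 180 and 875. All 3 were near wild type in GHR-null and highest in the double-null pool. Cxcl14 (141, 301, 84 and 193) was the only member limma called (at least 3.01-fold lower, adjusted p = 0.0296). None of 13 neutrophil markers reached an intensity of 100 in either pool, and 4 of 18 lymphocyte markers did. Of 17 interferon-induced genes 0 were at least 1.5-fold higher and 1 lower.

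Collagen and matrix genes were moderately dimmer. Of 30 measured 26 passed, 0 were at least 1.5-fold higher and 10 lower, with a median of -0.44. Limma called none. Col1a1, which with Col1a2 forms the fibrillar collagen of scar tissue, stood at 188, 373, 159 and 423 (-1.23). Col1a2 stood at 182, 403, 180 and 409 (-1.16) and Col3a1 at 180, 353, 166 and 311 (-1.09). The GHR-null values were near wild type, and the MDR2-null and double-null values were alike. Nid1, a basement membrane linker, stood at 199, 727, 280 and 883 (-1.38). Without the GHR-null array the list's median was -0.30 and these 4 genes stayed below 0. For them that estimate is close to wild type minus MDR2-null, so it says little of the GHR-null pool. The summed duct markers, mostly Krt8 and Krt18, and the summed macrophage markers were also higher in the pools without MDR2. Their part in the matrix and chemokine differences was not tested. Of 20 matrix remodelling genes 10 passed, 0 were at least 1.5-fold higher and 5 lower. Timp1, an inhibitor of matrix proteases, stood at 40, 129, 42 and 229, and the protease Mmp7 at 71, 113, 54 and 502. The latter was so high in the double-null pool that its estimate became 1.48, above 0, without the GHR-null array.

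Profibrotic signalling genes showed 1 member at least 1.5-fold higher and 8 lower of 22, with a median of -0.47, or -0.04 without the GHR-null array. Ccn2, a matricellular target of TGF beta, stood at 258, 532, 202 and 2197, and Tgfb2 at 46, 116, 48 and 229. The platelet-derived growth factors Pdgfa (230, 472, 224 and 484) and Pdgfc (184, 301, 162 and 295) were bright to a similar level in both pools without MDR2. Stellate cell and myofibroblast markers differed less. Of 21 measured, 1 was at least 1.5-fold higher and 3 lower, with a median of -0.16 and summed intensities of 5044, 6642, 6359 and 7957. Acta2, the actin of activated stellate cells, stood at 150, 324, 216 and 223 (-0.58, or 0.48 without the MDR2-null array), and Ecm1, a hepatocyte and stellate cell matrix protein, at 634, 448, 892 and 494 (0.99). Of 20 endothelial markers 2 were at least 1.5-fold higher, among them Flt1, a VEGF receptor (168, 159, 266 and 164), and 1 was lower, with a median of 0.28, or 0.04 without the GHR-null array.

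**Figure D4:**
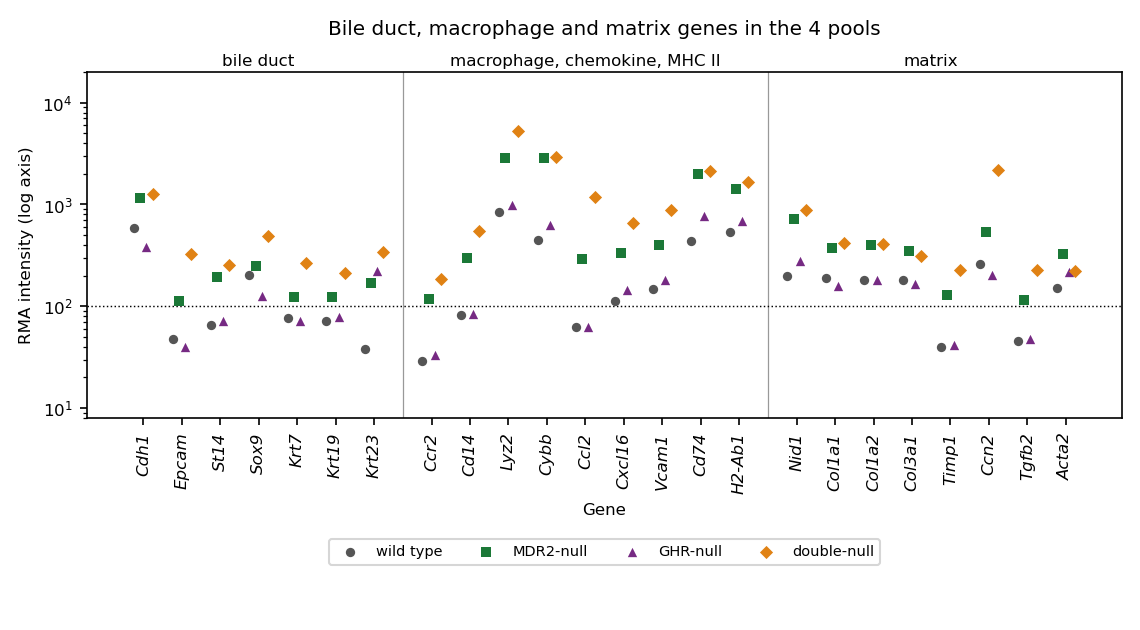
RMA intensity (y, log axis) of bile duct, macrophage, chemokine, MHC class II and matrix genes (x) in the 4 pools, 1 point per pool, with the level of 100 dotted. Most genes are near wild type in the GHR-null pool and higher in both pools without MDR2, and Krt23 is above wild type in all 3 mutant pools.

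Acute phase genes split. Of 26 measured 25 passed, 3 were at least 1.5-fold higher and 5 lower, with a median of -0.25, and 9 were lower with median centring. Lipocalin 2 (Lcn2), an iron-chelating protein of stressed epithelium, stood at 652, 6302, 747 and 7705, high in both pools without MDR2 and 8.44-fold lower in GHR-null. The serum amyloids took another course. Saa1 stood at 1181, 1631, 224 and 139, and Saa2 at 4723, 7446, 1169 and 1003, low in both pools without GHR (limma adjusted p = 0.054 and 0.0417). Hamp2 stood at 588, 142, 2528 and 782, 17.8-fold higher in GHR-null than in MDR2-null and near wild type in the double-null pool. The main hepcidin gene Hamp, named after its values were seen, stood at 5832, 5283, 6346 and 5094 and differed by 0.26.

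Stress and cell cycle genes differed less. Of 25 genes of ER stress and the amino acid response, 2 were at least 1.5-fold higher and 4 lower. Asparagine synthetase (Asns) stood at 222, 200, 66 and 1219, bright in the double-null pool and low in GHR-null, at least 2-fold below MDR2-null. Its log2 difference of -1.60 turned to 2.76 without the GHR-null array. Of 23 oxidative stress genes 0 were at least 1.5-fold higher and 4 lower, or 8 lower with median centring, with Cybb the only member limma called. Of 30 cell cycle genes 16 passed, 2 were at least 1.5-fold higher and 1 lower, or 1 and 6 with median centring. Cyclin D1 (Ccnd1), which drives entry into S phase, stood at 280, 1456, 997 and 2065, above wild type in every mutant pool, so that the 2 single-null pools differed by only -0.55, or 0.78 without the MDR2-null array. Among 17 genes of p53 and apoptosis, 2 were at least 1.5-fold higher and 3 lower, with Casp12 called by limma (46, 145, 48 and 168, adjusted p = 0.0444). Fetal liver and tumour markers gave 3 higher and 5 lower of 22. Cd24a, a surface protein of progenitor cells, stood at 106, 470, 126 and 1722.

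Clock and glucose genes leaned the other way. Of 17 clock genes 5 were at least 1.5-fold higher and 2 lower, but 2 and 3 with median centring or loess. Arntl, which encodes BMAL1, stood at 234, 109, 213 and 96, low in both pools without MDR2, and Nr1d1, its repressor, at 1042, 1136, 2030 and 556, a difference of 0.84 that turned to -1.16 without the GHR-null array. The sources used here give no time of day for dissection. Of 18 genes of glucose and glycogen 5 were at least 1.5-fold higher and 0 lower, with a median of 0.30, or 0.16 without the GHR-null array. Ppargc1a, a coactivator of fasting metabolism, stood at 287, 228, 606 and 542 (1.41, limma adjusted p = 0.059). The insulin receptor substrates Irs1 (311, 309, 611 and 439) and Irs2 (150, 142, 276 and 155) differed by 0.98 and 0.96. Irs1 came to 0.53 as the mean of all its rows, and Irs2 to 0.21 without the GHR-null array.

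**Figure D5:**
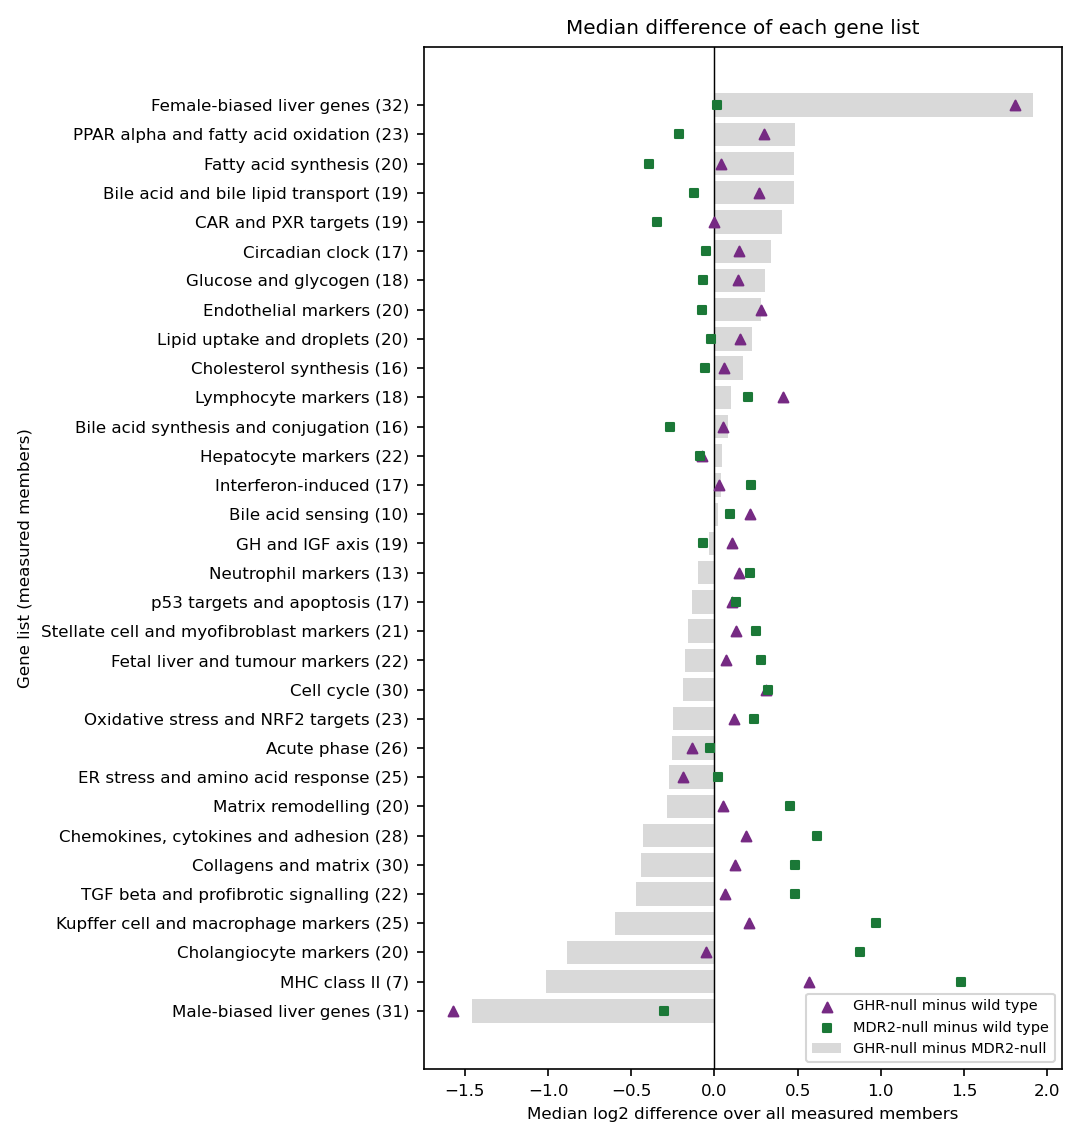
Median log2 difference over all measured members of each gene list (x) by list (y, number measured in parentheses), with bars for GHR-null minus MDR2-null and points for each single-null pool minus wild type. The 3 differences share arrays. Female-biased genes (1.91) and male-biased genes (-1.46) mark the ends, and cholangiocyte, macrophage and MHC class II lists are negative with the MDR2-null points above 0. Medians of hepatocyte, bile acid synthesis, bile acid sensing, lymphocyte and interferon-induced lists change sign with median centring, and those of bile acid sensing, interferon-induced and neutrophil lists with loess.

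Leaving out the GHR-null array, the median of chemokines, cytokines and adhesion molecules was -0.16 in place of -0.43, that of matrix remodelling genes -0.03 in place of -0.28 and that of fetal liver and tumour markers 0.29 in place of -0.18.

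The place of the wild-type pool shows which of the 2 single-null arrays lay farther from it. With 1 wild-type array, it does not show which array departed. Among the 163 higher genes wild type was nearer the MDR2-null value in 109 and nearer the GHR-null value in 54. Among the 222 lower genes it was nearer the GHR-null value in 145 and nearer the MDR2-null value in 77. Taking a departure as 1.5-fold from wild type, 86 of the 163 had one in the GHR-null pool alone, 45 in the MDR2-null pool alone, 22 in both in opposite directions, 7 in both on the same side and 3 in neither. Of the 222, 56 had one in the GHR-null pool alone, 123 in the MDR2-null pool alone, 16 in both in opposite directions, 26 in both on the same side and 1 in neither. These counts share the wild-type array. The double-null pool was nearer MDR2-null in 117 of the 163 and 154 of the 222, and nearer GHR-null in 46 and 68. Of the 163 and 222, 25 and 22 were on the sex-biased or sex-linked lists.

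A few genes hardly differed between the single-null pools because both had left the wild-type level. Fabp5, an epidermal-type fatty acid binding protein, stood at 1033, 230, 219 and 274, and Gdpd3, a lysophospholipase, at 29, 407, 342 and 299. Both were named after their values were seen, and in both the wild-type array stands apart from the other 3. The male-biased Selenbp2 stood at 1137, 555, 540 and 495, low in every mutant pool, and was named in the same way. With 1 array of wild type, a departure of that array and a response shared by the mutants cannot be told apart.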

How the data were processed

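RNA from pooled liver was measured on 4 Affymetrix whole-transcript arrays. The authors deposited 1 intensity per probe set and array, made with RMA in Affymetrix Expression Console 1.1 per the submitters' processing notes. The deposited intensity values are whole numbers reaching far past a log range, so they were read as linear and converted to log2, and low values are coarse. No detection calls or scanner files were used here, and depth has no meaning for arrays: their number limits the precision.

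Of 35556 rows, 21789 had exactly 1 gene symbol in GEO's platform annotation, 1621 several and 12146 none. 21698 were matched to RefSeq by gene identifier. Of the genes, 999 had several rows.

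The contrast, the 2-fold and 1.5-fold counts and the 36 gene lists were computed in Python 3.11.15. A count for a list takes members at least 1.5-fold apart whose higher array was at least 100, and a median takes all measured members. The test was limma 3.58.1 in R 4.3.3 with Benjamini-Hochberg adjustment over 10392 genes, on an additive model of 4 arrays with eBayes (4.86 prior degrees of freedom). It was tested on simulated data, where the share of false calls could exceed the nominal rate, so calls near the threshold are weak. In a simulated run with effects that add exactly on the log2 scale, the test found 12% of genes changed 2-fold and 97% of those changed 4-fold. That run also gave 18 false calls, a share of its calls above the nominal rate. Genes here that are not additive inflate their own error, so these shares do not hold for them. A gene about 2-fold apart, or a non-additive gene at a larger fold, is therefore no negative result where it was not called. P-values do not cover the spread between mice.

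Genes were named by a rule: the 2 targeted genes, the 15 highest and 15 lowest differences without predicted loci, up to 4 members of each list with the largest difference, the 5 lowest limma p-values among higher and among lower genes, and a panel, of which 1 gene had no row. Others are marked where named. The members, lists and panel were chosen with earlier results of these data known. Some promoter windows were not used here.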

Additional observations from a re-analysis of the deposited data

Results flagged for a closer look

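Rows without a single gene symbol were outside the comparison, and some carried a difference. Of 1621 rows with several gene symbols 799 passed the level, 18 were at least 2-fold higher and 11 lower in the GHR-null than in the MDR2-null pool, and in 23 the higher pool was also at least 2-fold above wild type. Of 12146 rows with no symbol 3859 passed, 124 were at least 2-fold higher and 112 lower, and in 59 the higher pool was at least 2-fold above wild type. Their genes were not identified here.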

How the results depend on the processing

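Each genotype had 1 array, so neither the counts nor the folds have a replicate check. No paired analysis was possible because each group holds 1 array, and its replicate number is only a name. The 163 higher and 222 lower genes became 815 and 581 at 1.5-fold, 36 and 41 at 4-fold and 106 and 134 with an offset of 50, and 117 were lower with a level at the 75th percentile of intensity (329). With either single-null array left out the counts ran from 205 to 715 higher and from 288 to 426 lower, and without the GHR-null array 70 of the 163 and 127 of the 222 stayed past 2-fold, 141 stayed above 0 and 201 below 0. The 19 higher and 46 lower limma genes became 0 and 0 without the level filter, 6 and 10 at the 75th percentile, 10 and 26 after loess, 6 and 10 with hepatocyte marker centring, and 24 were lower with the offset. Of higher genes, wild type was nearer GHR-null in 33 with median centring and 29 with the offset (54 as reported), and the double-null pool in 29 with the offset (46). Of lower genes, wild type was nearer GHR-null in 73 with the offset (145). Fewer genes were 2-fold apart under these settings, 110 higher with median centring and 106 higher and 134 lower with the offset. A smaller count is thus not by itself a smaller share. These positions under other settings were added after seeing the data.

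Leaving out the GHR-null or the MDR2-null array turned the direction of 14 of the 97 named genes with a difference of 2-fold or more, and of 29 of the 66 that passed the level with a smaller one. For the 14, the log2 difference ran from -5.96 to 2.76 for Asns, -3.80 to 1.0 for Ccn2, -0.65 to 3.24 for Cd36, -3.30 to 0.42 for Cx3cr1, -1.05 to 5.45 for Cyp2b10, -0.11 to 7.91 for Cyp3a16, -3.30 to 0.31 for Epcam, -3.26 to 0.69 for Igf1, -3.0 to 0.77 for Igfals, -3.43 to 0.11 for Mmp12, -3.61 to 1.48 for Mmp7, -3.14 to 0.25 for Slpi, -3.0 to 0.73 for Socs2 and -0.25 to 12.81 for Xist. These estimates assume additive effects, and the cause was not tested.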
